A study of Arabidopsis thaliana with 18 samples.

Results

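The comparison described here is that of SA with silwet in the second of 3 serial sets of arrays from Arabidopsis thaliana accession Mt-0, 6 of the 18 arrays in all. Its members were taken from the array titles. Serial numbers 85 to 87 are plants that received 0.30 mM SA in silwet, and serial numbers 76 to 78 are plants that received silwet at 0.02% alone, with replicates 1, 2 and 3 in either run. Both groups thus carried the surfactant, and they differed by SA, read here as salicylic acid. The other 12 arrays hold the same treatments in serial sets 1 and 3, which share no array with set 2. What separates the sets is not in the labels, which also give no tissue, plant age, harvest time or number of plants per array. They do not say that replicates were separate cultures or plants, so the p-values cover array-to-array spread only, and part of that spread may be technical.

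Salicylic acid is a plant hormone that accumulates after attack by biotrophic pathogens. It is sensed by the NPR proteins, which act with TGA transcription factors, and a wave of WRKY factors, glutaredoxins and secreted defence proteins follows. Enzymes that glucosylate, hydroxylate or methylate SA limit its level. Silwet is a wetting agent that spreads a spray over the leaf surface and serves as the mock treatment here.

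Each value is an Affymetrix ATH1 probe set signal on the linear MAS5 scale, and differences are SA minus silwet on the scale of log2(signal + 16), averaged over the 3 replicate pairs. A pair is the SA and the silwet array with the same replicate number. Of the Arabidopsis probe sets, the 13647 in the upper 60% by mean level were tested with limma, and a probe set was called at an adjusted p under 0.05. Median signal on the 6 arrays ran from 31.0 to 33.6. The number of arrays limits the precision.

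In the title of the SA array of replicate 1, the second number carries a letter b, which the labels do not explain. The silwet array of replicate 1 stood apart from the other 5. Its mean correlation with them was 0.956, against 0.963 to 0.973 for the others. Its log2 ratio of 3′ to 5′ signal, a sign of RNA or labelling quality, was the highest of all arrays for the actin control probe sets, at 0.003. For the GAPDH (0.769) and ubiquitin (1.52) controls other arrays were higher, up to 0.922 and 1.81. Its mean ratio over ubiquitin, GAPDH and actin was 0.763, above every one of the other 17 arrays, of which the highest was 0.723. This ratio was lower in SA than in silwet in 3 of 3 pairs, with SA arrays at 0.333 ± 0.270 and silwet arrays at 0.492 ± 0.248 (3 arrays each, SD; difference -0.159, two-sided exact permutation test, p = 0.5, where 0.1 is the smallest p that 20 arrangements allow). Within pairs, the exact sign-flip permutation test gave p = 0.25, the smallest that 3 pairs allow, so neither test could pass 0.05. The part of this shift in the results was not tested. Differences that moved by over 1.5 times without replicate 1 are given with that value where they are described singly, and with the range for the largest differences.

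No probe set passed the adjusted threshold between SA and silwet in set 2. Of 13647 probe sets, 0 were called by limma in either direction (0.0%), and the smallest adjusted p was 0.486, shared by 579 probe sets. At an unadjusted p under 0.05 there were 1313 (9.62%), of which 832 were higher in SA (6.1%) and 481 lower (3.52%), where 682 would be expected with no difference. Without the replicate block this count was 233, and without replicate 1 it was 501. In set 1, the same fit called 3814 probe sets (27.9%), 1636 higher in SA (12%) and 2178 lower (16%). In set 3 it called 0, with 955 at an unadjusted p under 0.05 (7.0%), of which 2.71% of all tested were higher and 4.29% lower.

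The differences in set 2 were also small. Their SD over probe sets was 0.224, against 0.529 in set 1 and 0.204 in set 3. On the transformed scale, only 6 probe sets were more than 1 higher in SA and 8 more than 1 lower, where set 1 had 526 and 249. That scale understates changes of dim genes, so these are not counts of 2-fold changes in signal. The median difference in set 2 was 0.01. The 95% confidence interval of a probe set had a median reach of 0.334 on either side. For 13249 probe sets (97.1%) it lay wholly within a difference of 1 either way, each interval taken on its own. A difference of 1 in set 2 was thus outside the interval for nearly every probe set taken singly, while changes well below that size were not resolvable with 3 pairs.

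The 3 pairs of set 2 did not repeat each other closely. The SD of SA minus silwet over probe sets was 0.450 in pair 1, 0.262 in pair 2 and 0.297 in pair 3. Across the 13647 probe sets, pairs 1 and 2 correlated at 0.279, pairs 1 and 3 at 0.032 and pairs 2 and 3 at 0.132. In set 1 the same correlations lay between 0.753 and 0.799. These are descriptions across probe sets of shared arrays, not tests. Of the variance among the 6 arrays, treatment held 21.2%, replicate number 49.7% and the remainder 29.0%, whereas treatment held 47.8% in set 1 and 11% in set 3. With so few arrays, treatment holds part of the variance even with no effect. The shares of sets 2 and 3 are thus not read as an effect of SA.

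**Figure D1:**
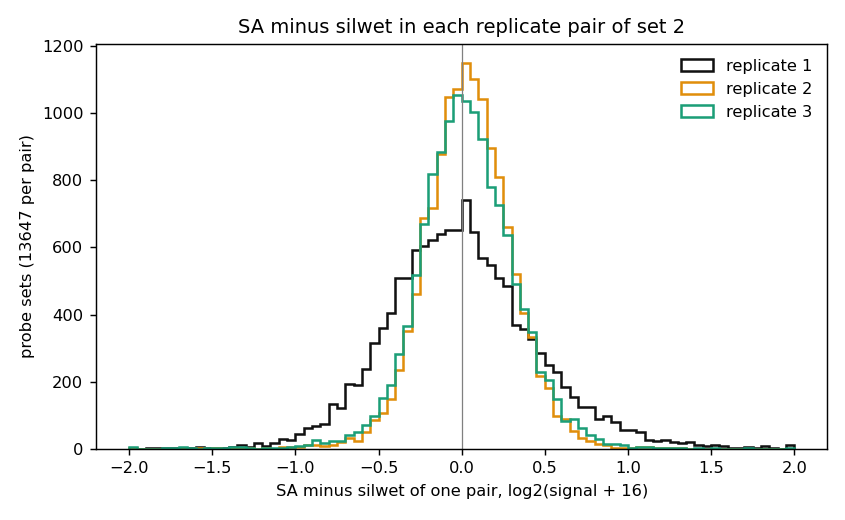
Histograms of SA minus silwet, on the log2(signal + 16) scale in bins along the x axis, for each replicate pair of set 2, with the number of the 13647 tested probe sets on the y axis; values beyond the axis are placed in its end bins. All 3 curves centre near 0, and that of replicate 1 is wider (SD 0.450) than those of replicates 2 and 3 (0.262 and 0.297).

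Genes with a strong SA response in set 1 showed no comparable difference in set 2. F6'H1 (AT3G13610), a hydroxylase of scopoletin synthesis, had signals of 44.3, 59.4 and 110 on the SA arrays of set 2 (replicates 1 to 3), against 53.6, 36.6 and 136 on the silwet arrays. In bulk RNA such a signal cannot tell the number of expressing cells from the RNA per cell. The groups overlapped, and in both the highest array was that of replicate 3. The difference was 0.01 ± 0.33 (SE; 95% interval -0.70 to 0.72), and 0.12 without replicate 1. In set 1, F6'H1 averaged 586.5 ± 12.1 on the SA arrays and 29.2 ± 32.5 on the silwet arrays (SD, n = 3). The SA effect in set 2 minus that in set 1 was -3.96 (limma adjusted p = 5.18e-04).

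The enzymes that act on SA itself were represented by 2 tested genes. UGT76B1 (AT3G11340), which glucosylates SA and the related isoleucic acid, had signals of 22.0, 23.9 and 68.5 in SA and of 38.9, 11.5 and 82.6 in silwet. Again the groups overlapped, with replicate 3 highest in both. The difference was -0.07 ± 0.31 (95% interval -0.74 to 0.60), and the effect was lower than in set 1 by a log2 value of -3.65 (adjusted p = 5.93e-04). BSMT1, a methyltransferase that makes methyl salicylate and methyl benzoate, had 20.5, 11.3 and 4.46 in SA and 5.08, 44.9 and 84.2 in silwet. Its SA array was the higher one in replicate 1 and the lower one in replicates 2 and 3, for a difference of -0.88 ± 0.46 with an interval of -1.89 to 0.12. Without replicate 1 it was -1.72, and that of UGT76B1 was 0.16.

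Of the SA and systemic acquired resistance markers, 2 of 14 listed loci had a tested probe set here, and neither was higher in SA. GRX480 (also ROXY19), a glutaredoxin that binds TGA factors, had 60.5, 72.6 and 158 in SA and 101, 82.9 and 179 in silwet. Each SA array was below its silwet partner, but the groups overlapped. Its difference of -0.31 ± 0.31 (interval -0.995 to 0.37; -0.16 without replicate 1) compares with an effect in set 1 that was larger by 2.82 (set 2 minus set 1, -2.82, adjusted p = 0.00281). AT5G52810, the other marker, had 151.6, 163 and 275 in SA and 214, 201 and 237 in silwet, a difference of -0.18 ± 0.19 (-0.04 without replicate 1), and its effect in set 2 minus set 1 was -2.43 (adjusted p = 4.61e-04).

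SAG101, a lipase-like partner of EDS1 in immune signalling, was the 1 tested gene of the SA synthesis and EDS1-PAD4 list of 11 loci. Its signals were 37.8, 32.2 and 59.6 in SA and 50.0, 28.9 and 39.7 in silwet, and its difference was 0.08 ± 0.19 (interval -0.33 to 0.50), and 0.27 without replicate 1. The effect in set 2 minus set 1 was -1.04 (adjusted p = 0.0221), a call that ended without replicate 1, without replicate 2 and without the replicate block.

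The defence WRKY transcription factors, which bind W-box elements, had 3 tested members of 19 listed loci. Of the 3, 0 had an unadjusted p under 0.05, where 9.62% of all tested probe sets did. With 3 members, that count is not read as a result about WRKY factors. WRKY53, a regulator of senescence and defence, had 94.8, 64.1 and 255 in SA, against 152, 49.2 and 204 in silwet, so that the replicates of either treatment spanned a wider range than any difference between treatments. Its difference was 0.00 ± 0.24 (interval -0.52 to 0.52), and 0.30 without replicate 1. WRKY6, another senescence-associated factor, had 61.8, 42.9 and 118 in SA and 47.4, 54.2 and 150.0 in silwet, a difference of -0.09 ± 0.21 (-0.28 without replicate 1). WRKY22, which acts downstream of a MAP kinase cascade in flagellin signalling, had a difference of -0.18 ± 0.14. The effect in set 2 minus set 1 was -1.52 for WRKY53 (adjusted p = 0.0118) and -1.21 for WRKY6 (adjusted p = 0.0181). The call of WRKY53 ended without replicate 1, that of WRKY6 without replicate 2, and both ended without the replicate block.

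**Figure D2:**
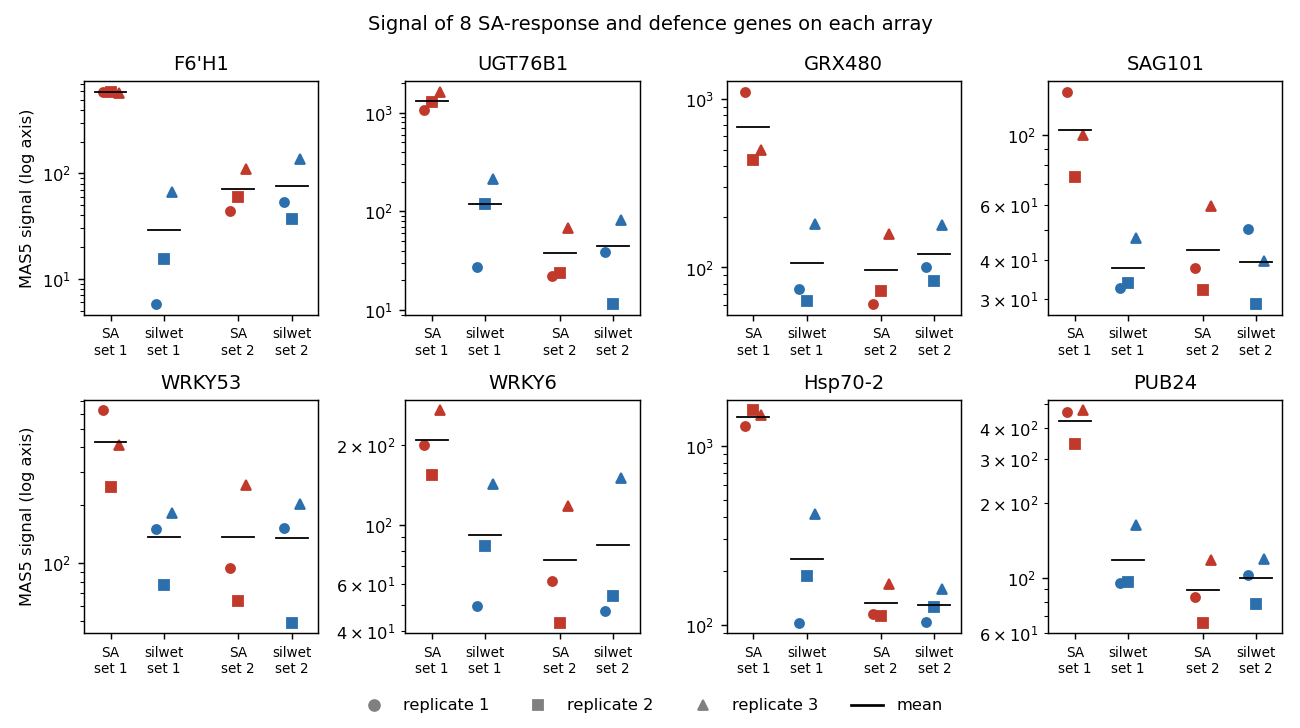
MAS5 signal on a log axis for 8 genes, with 1 point for each array, marker shape for the replicate and a bar for the mean; within each set SA stands left of silwet. In set 1 the SA arrays lie above the silwet arrays for all 8 genes, whereas in set 2 the groups overlap for all 8, and for 7 of them replicate 3 is the highest array of both treatments (in SAG101 that holds for SA alone).

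Replicate 3 was high in both treatments for these genes in set 2. For the 12 strongest increases of set 1, the replicate 3 array was the highest of the 3 SA arrays in 12 of 12 and the highest of the 3 silwet arrays in 11 of 12. Replicate 3 lay above the mean of replicates 1 and 2 by a median log2 value of 0.88 in SA and 0.78 in silwet, against -0.01 and -0.02 over all tested probe sets. Of the probe sets called in set 1, 524 were higher in SA by more than 1 on the log2(signal + 16) scale. Among these 524, replicate 3 was above the mean of the others for 93.1% in SA and 75.8% in silwet. Over all tested probe sets, it was above for 49.1% and 47.7%. A plot of signals by array shows the same for single genes. A high replicate 3 was not confined to set 2. F6'H1 had 5.75, 15.5 and 66.3 on the silwet arrays of set 1 and 5.09, 23.97 and 49.95 on those of set 3. Among the 12, BGLU31 and AT5G22530 did not have replicate 3 highest on the silwet arrays of set 3. On the SA arrays of set 1, F6'H1 had 593, 594 and 573. No cause of this replicate difference was tested.

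Over the whole set of genes that responded in set 1, the differences in set 2 centred on 0. The 1636 probe sets called higher in set 1 had a median of -0.03 in set 2, and 45.1% of them lay above 0, against 52.0% of all tested. In the pairs of replicates 1, 2 and 3 the median was -0.14, -0.06 and 0.14, and without replicate 1 it was 0.03. Of these probe sets, 93 (5.69%) had an unadjusted p under 0.05 in set 2, against 9.62% of all tested, and 44 (2.69%) had all SA arrays above all silwet arrays, against 8.56% of all tested. The confidence interval lay below an increase of 1 on the transformed scale for 1615 of the 1636. The 2178 called lower in set 1 had a median of 0.02 in set 2. Of them, 110 (5.05%) were lower in SA without overlap, against 5.42% of all tested. The interval excluded a decrease of 1 on that scale for 2167. Over all tested probe sets, 97.1% of intervals lay within a difference of 1 either way. The fit gave a probe set the same SE in each set, so a call in set 1 favoured a narrow interval in set 2. The counts of 1615 and 2167 are thus not read as a trait of these genes. Across all tested probe sets, the effects in sets 2 and 1 correlated at -0.105, and at 0.012 without replicate 1 in set 2.

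**Figure D3:**
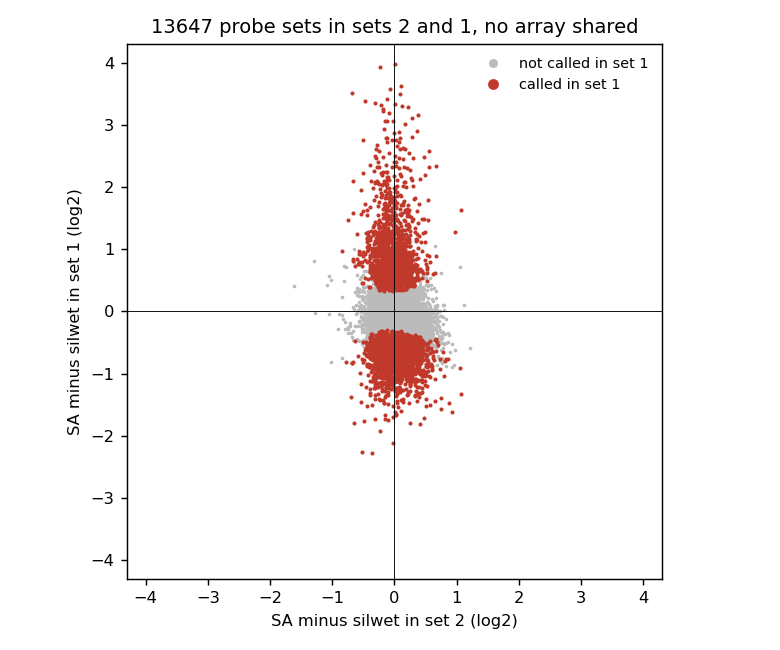
SA minus silwet on the log2(signal + 16) scale in set 2 (x axis) and in set 1 (y axis) for the 13647 tested probe sets, each 1 point, red where called in set 1. The points called in set 1 spread along the vertical axis up to nearly 4 and stay close to 0 on the horizontal axis, with a correlation of -0.105 across probe sets.

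The difference between the sets was itself tested. The SA effect in set 2 minus that in set 1 passed for 2341 probe sets (17.2%), 1310 where it was higher in set 2 (9.6%) and 1031 where it was lower (7.55%). With each array scaled to its 75th percentile, the split turned to 973 higher and 1180 lower. Without the replicate block, 438 passed, 139 higher and 299 lower. The count was 1164 without replicate 1 and 1015 without replicate 2. Between sets 2 and 3, 0 probe sets passed, with 1975 at an unadjusted p under 0.05, but with array weights 429 passed, 299 higher in set 2 and 130 lower. The effects in sets 2 and 3 correlated at -0.370 across probe sets.

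By single genes, the 12 strongest increases of set 1 had differences from -0.22 to 0.36 in set 2. For 12 of 12 the set 1 value lay outside the set 2 interval. These genes were chosen for their size in set 1 (2.78 to 3.97), and their set 2 intervals reached at most 1.09. That count was thus favoured by the choice and is not a separate test. BGLU31, a beta-glucosidase, had 8.93, 6.16 and 16.7 in SA and 14.3, 7.36 and 24.4 in silwet, a difference of -0.22. UGT73D1, another glycosyltransferase, had 16.8, 28.7 and 53.9 in SA and 18.8, 15.6 and 27.8 in silwet, at 0.36 the highest of the 12, and 0.59 without replicate 1. The others carried locus codes alone, apart from F6'H1 and UGT76B1. The 12 strongest decreases of set 1 ranged from -0.65 to 0.93 in set 2. Of these, AT4G28080 had 282, 480.0 and 507 in SA and 111, 248 and 320.1 in silwet. Its SA array was the higher one in each pair, and its difference of 0.93 ± 0.38 was opposite in sign to that of set 1, at -1.62.

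The chaperones Hsp70-2 and Fes1A and the immune regulator PUB24 gave the same picture. Hsp70-2, a cytosolic chaperone, had 115, 112 and 169 in SA and 104, 126 and 158 in silwet, a difference of 0.02 ± 0.26 whose sign turned under 6 of the 12 alternatives, with -0.03 without replicate 1. Fes1A, which protects cytosolic Hsp70, had 74.3, 94.7 and 80.6 in SA and 136, 95.1 and 79.3 in silwet. Only its first pair was apart, and the difference was -0.25 ± 0.16, and 0.01 without replicate 1. PUB24, a ubiquitin ligase that restrains pattern-triggered immunity, had 84.0, 66.0 and 118 in SA and 103, 78.3 and 119 in silwet, or -0.15 ± 0.15. The effect in set 2 minus set 1 was -2.73 for Hsp70-2 (adjusted p = 0.00134), -2.57 for Fes1A (2.56e-04) and -1.90 for PUB24 (4.88e-04). BIK1, a receptor-associated kinase, had a difference of -0.02 ± 0.22 in set 2 (0.03 without replicate 1), and EFR, the receptor for bacterial EF-Tu, of -0.20 ± 0.15. PUB23, of the same immunity list, was at 0.07 ± 0.23 (0.20 without replicate 1). For these genes the effect in set 2 minus set 1 was not called. It was -0.91 for BIK1 (limma adjusted p = 0.0664), -0.37 for EFR (0.241) and -0.17 for PUB23 (0.766). EFR and PUB23 were not called in set 1 either.

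The calmodulin-like calcium sensors, which relay calcium signals, lay below 0 for 6 of 6 tested members, with a median of -0.16, -0.20 under quantile normalization and also -0.20 under 75th percentile scaling. Over all tested probe sets, 52.0% lay above 0. None of the 6 had an unadjusted p under 0.05 or arrays without overlap, where 9.62% and 14.0% of all tested did. With 6 members, these counts are not read as a result about the sensors. CML38 had the lowest value at -0.37 ± 0.24, with an SA signal of 1.82, 9.93 and 33.1, against 14.5, 15.2 and 35.6 in silwet. CML42, a calcium sensor of trichomes and herbivory, was at -0.24 ± 0.19. Without replicate 1 CML38 was at -0.17 and CML42 at -0.10. CML30 belonged to the symbol-based family alone. Its signals of 30.4, 33.7 and 29.6 in SA lay below the 48.7, 46.6 and 42.5 of silwet on every array, a difference of -0.39 ± 0.12 (limma, unadjusted p = 0.0085). It was not called.

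The genes of endoplasmic reticulum folding had 6 tested members, 3 above and 3 below 0, and a median of 0.03 in set 2 against 0.57 in set 1. In set 1, 6 of 6 were called higher, where 12% of all tested probe sets were. CRT1b, a calreticulin, had 672, 736 and 905 in SA and 595, 704.5 and 685 in silwet, a difference of 0.21 ± 0.13. BZIP60, a transcription factor of the unfolded protein response, had 364, 265 and 574 in SA and 504, 352 and 564 in silwet, or -0.27 ± 0.13 (-0.18 without replicate 1). Of mitochondrial stress genes, NDB2, an alternative NADH dehydrogenase, had a difference of -0.05 ± 0.25 (0.03 without replicate 1) and IDH-VI, an isocitrate dehydrogenase subunit, of -0.10 ± 0.15. AT2G21640 had 33.9, 50.2 and 117 in SA and 166, 88.4 and 84.5 in silwet. Its difference of -0.70 ± 0.31 was made by replicates 1 and 2, since in replicate 3 the SA array was the higher one, and it was -0.13 without replicate 1.

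Lists of other hormones were likewise without a call. The auxin genes had 3 of 3 tested members above 0, where 52.0% of all tested probe sets were. GH3.3, which conjugates auxin to amino acids, had 38.6, 72.7 and 101 in SA and 11.3, 43.1 and 125 in silwet, a difference of 0.44 ± 0.28. It was 0.16 without replicate 1, and -0.14 without the silwet array of replicate 1 and the replicate block. In the jasmonate list, PDF1.2 and PDF1.2b, plant defensins of near-identical sequence whose probe sets can cross-hybridise, were at -0.11 ± 0.27 and 0.37 ± 0.26. PDF1.2 was at -0.21 without replicate 1, and at 0.42 without its silwet array and the replicate block. On both, replicate 1 was high in either treatment, with PDF1.2 at 243 in SA and 225 in silwet, against 30.8 and 87.9 in SA and 40.1 and 100.6 in silwet for replicates 2 and 3. THI2.1, a thionin, was at 0.05 ± 0.23 (0.01 without replicate 1). The cold and drought genes COR47 and COR15A were at 0.07 ± 0.14 and -0.04 ± 0.16, and COR15A was at -0.16 without replicate 1. Among genes of aliphatic glucosinolate synthesis, BCAT4, an aminotransferase of chain elongation, was at -0.09 ± 0.18, and at -9.03e-04 without replicate 1.

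Photosynthesis genes of the nucleus did not separate between the treatments. RCA, the Rubisco activase, had 3605, 2634 and 2917 in SA and 2249, 3066 and 2818 in silwet (difference 0.17 ± 0.15, and -0.08 without replicate 1), and the 3 tested LHCB4 genes, which encode a minor antenna protein of photosystem II, lay between -0.16 and 0.06. Of the genes encoded in the plastid, 66 were tested and 41 lay above 0, where 52.0% of all tested probe sets did. Their median was 0.06, with 0.32 in the pair of replicate 1, -0.24 in that of replicate 2 and 0.09 in that of replicate 3, and -0.08 without replicate 1. At an unadjusted p under 0.05, 7 of the 66 were higher in SA and 1 lower, where 6.1% of all tested were higher and 3.52% lower. psaA, a core subunit of photosystem I, had the largest difference. Its signals were 1351, 465 and 1003 in SA and 198, 333 and 709 in silwet, a difference of 1.21 ± 0.42 that was 0.48 without replicate 1. The root marker PYK10, a beta-glucosidase, had 32.4, 117 and 129 in SA and 145, 121 and 130.4 in silwet, so the SA array of replicate 1 was low and the other 5 lay close together. Its difference was -0.60 ± 0.37, and -0.03 without replicate 1.

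**Figure D4:**
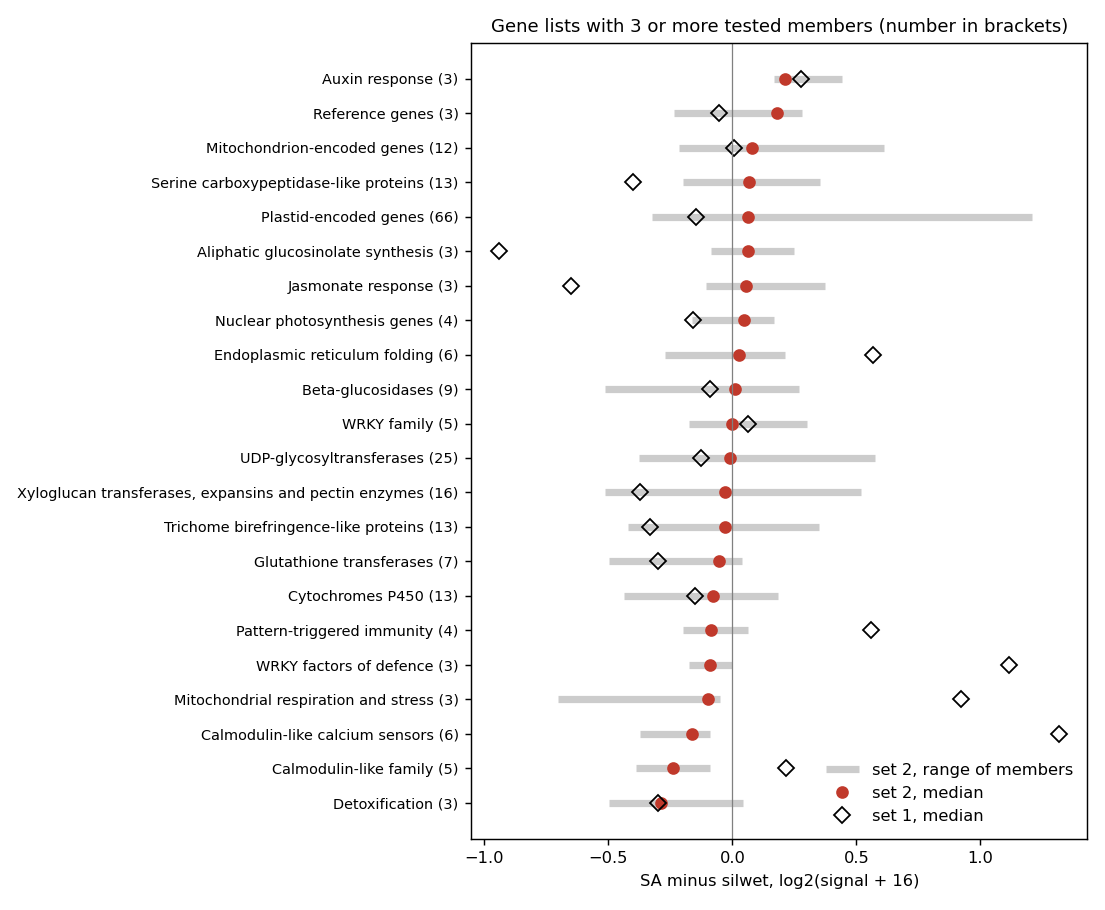
Gene lists with 3 or more tested members, with SA minus silwet on the log2(signal + 16) scale on the x axis; the grey bar spans the members in set 2, the red point is their median in set 2 and the open diamond their median in set 1. The medians of set 2 lie between -0.29 (detoxification) and 0.21 (auxin response), while those of set 1 reach 1.32 for calmodulin-like calcium sensors and -0.94 for aliphatic glucosinolate synthesis.

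Gene families by symbol showed a similar spread around 0. The cell wall group of xyloglucan transferases, expansins and pectin enzymes had 16 tested members with a median of -0.03, of which 3 were higher and 2 lower in SA at an unadjusted p under 0.05, where the shares over all tested were 6.1% and 3.52%. EXLA1, an expansin-like protein, had 31.6, 16.1 and 49.3 in SA and 53.4, 29.1 and 76.6 in silwet. Each SA array was below its partner, and the difference was -0.51 ± 0.15, beside -0.76 in set 1, where it was called. XTH32, a xyloglucan endotransglucosylase, stood at -0.37 ± 0.14 beside -0.77 in set 1, also called there. EXPA9, an expansin, had 55.1, 39.5 and 30.7 in SA and 27.3, 30.5 and 23.5 in silwet, every SA array above every silwet array, a difference of 0.40 ± 0.16 (0.25 without replicate 1) beside -0.65 in set 1. Among 13 serine carboxypeptidase-like proteins, 11 lay above 0 (median 0.07, and 0.02 under 75th percentile scaling). Of 25 UDP-glycosyltransferases, 1 was higher and 1 lower at that p, of 13 cytochromes P450 2 were lower, and of 9 beta-glucosidases 2 were lower, beside the same shares over all tested. Counts this small are not read as a result about a family. BGLU16, of the last group, averaged 141 ± 19.7 in SA and 219 ± 93.2 in silwet (SD, n = 3), a difference of -0.51 ± 0.18.

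SA and silwet arrays did not overlap for 1907 probe sets (14.0%), with SA higher in 1168 (8.56%) and lower in 739 (5.42%). Of the 1168, 694 had their largest difference in pair 1, as did 463 of the 739. The silwet array of replicate 1 was the lowest of the 6 in 61.5% of the 1168 and the highest of the 6 in 57.4% of the 739, where 1 of the 3 silwet arrays has to be. The following genes are the 12 largest differences in either direction among those with exactly 1 gene, no overlap and the same sign in each pair. None was called (limma adjusted p from 0.486 to 0.578), and they are described as values.

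The highest was GI (GIGANTEA), a clock-associated protein that promotes flowering in long days. It had 602.5, 446 and 529 in SA and 120.0, 313 and 372.5 in silwet. All SA arrays lay above all silwet arrays, and the silwet array of replicate 1 was the lowest. The difference was 1.05 ± 0.31 (95% interval 0.39 to 1.72), 2.19 in pair 1 but 0.49 in pair 2 and 0.49 in pair 3. In set 1 GI was lower in SA, at -0.92, and the effect in set 2 minus set 1 was 1.97 (adjusted p = 0.0114), a call that ended without the replicate block. GI was the only tested gene of the clock list of 10 loci. TIC (TIME FOR COFFEE), a nuclear regulator of the clock that was named by its rank and not through that list, had 243, 213 and 237 in SA and 72.3, 132 and 170.3 in silwet, a difference of 0.88 ± 0.23, and of 0.54 without replicate 1.

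RAPTOR1, the partner protein of the TOR growth-control kinase, had 113, 116 and 96.6 in SA and 32.6, 70.1 and 74.3 in silwet. Its difference was 0.78 ± 0.24, and 0.47 without replicate 1. The other 9 carried locus codes alone. They were AT1G21630 (0.98), AT3G14067 (0.90), AT1G01320 (0.88), AT2G47390 (0.83), AT5G14540 (0.80), AT2G17930 (0.78), AT5G64270 (0.78), AT4G30310 (0.75) and AT3G01560 (0.74). For 11 of the 12, pair 1 gave the largest difference, the exception being AT2G17930, and for 12 of 12 the silwet array of replicate 1 was the lowest of the 6. Without replicate 1 the 12 ranged from 0.22 to 0.78. In set 3, 12 of 12 were below 0, from -0.58 to -0.10, and in set 1, 10 of 12.

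Of the genes lower in SA, SWEET17, a fructose transporter of the vacuole membrane, had 75.0, 129.7 and 82.6 in SA and 144, 267 and 132 in silwet. Each SA array was below its partner and below all silwet arrays. The difference was -0.79 ± 0.16 (95% interval -1.13 to -0.44), and -0.77 without replicate 1. In set 1 SWEET17 was called at -0.81, and in set 3 its value was 0.17. SWEET2, a glucose transporter of the same family that also sits in the vacuole membrane, had 51.3, 67.3 and 56.4 in SA and 86.6, 106 and 126 in silwet, a difference of -0.71 ± 0.16, and of -0.76 without replicate 1. Its values in sets 1 and 3 were -0.24 and 0.38.

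AT4G39200 had 521, 644 and 794 in SA and 1080, 1088 and 1096 in silwet. The silwet arrays differed from each other by under 20 signal units, and every SA array was lower, for a difference of -0.74 ± 0.15 and an unadjusted p of 2.63e-04 by limma, the smallest of the named genes. AT3G02480 was farthest from 0 of the 24 genes, at -1.27 ± 0.52, with 23.6, 29.7 and 16.3 in SA and 53.4, 61.2 and 138.5 in silwet. Its silwet array of replicate 3 was far above the others. The remaining 8 were AT3G48490 (-0.81), AT1G05340 (-0.65), AT5G16980 (-0.63), AT3G20510 (-0.60), AT1G68440 (-0.58), AT5G41685 (-0.58), AT1G28190 (-0.56) and AT1G15010 (-0.54). In 7 of the 12 the largest difference was that of pair 1, and without replicate 1 the 12 ranged from -1.51 to -0.31. In set 1, 5 of the 12 were below 0 and 7 above, among them AT1G15010 at 1.57 and AT1G28190 at 0.92.

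**Figure D5:**
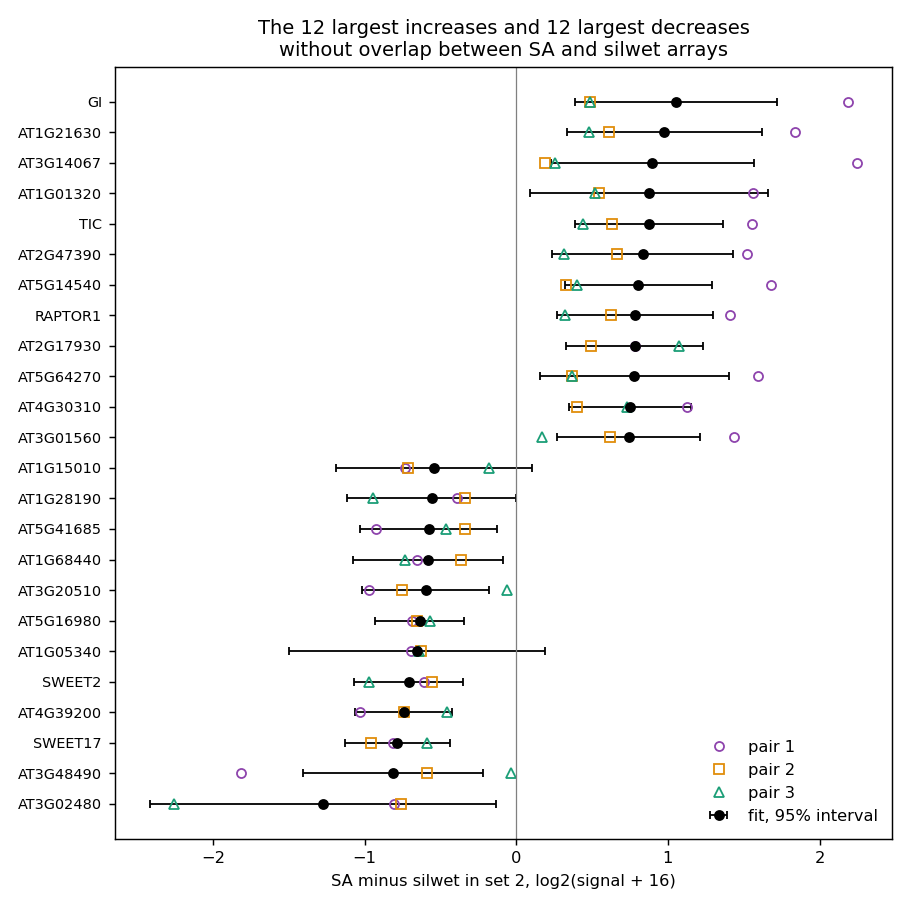
SA minus silwet in set 2 on the log2(signal + 16) scale for the 12 largest differences in either direction among genes whose SA and silwet arrays do not overlap; black points with bars are the fit with its 95% interval, and open symbols are the 3 pairs. In 11 of the 12 upper genes the pair of replicate 1 lies farthest from 0, and for all 24 genes the 3 pairs lie on the same side of 0.

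Genes often used as expression references were measured in the same way. UBC21 (PEX4) had 249, 267 and 275 in SA and 324, 303 and 310.1 in silwet, AT4G34270 had 111, 109 and 117 in SA and 86.0, 96.9 and 85.6 in silwet, and AT2G28390 had 174, 158 and 163 in SA and 155, 131 and 146.5 in silwet. In all 3 the treatments did not overlap, where 14.0% of all tested probe sets did not. Their differences were -0.23 ± 0.14, 0.28 ± 0.15 and 0.18 ± 0.11. An unadjusted p under 0.05 was reached by 0 of the 3, where 9.62% of all tested probe sets had one. Lack of overlap between 3 and 3 arrays was thus met by these genes too. They are the 3 tested of 9 listed loci, too few to be read as a result about reference genes.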

How the data were processed

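Total RNA of Mt-0 was hybridised to ATH1 arrays. The authors deposited probe set intensity values computed with MAS5, per the submitters' processing notes, which give no version. Each deposited column has a trimmed mean (2% at either end) of 100.01. The upstream genome build was not given in the sources used here. Gene names came from the platform table of probes and from RefSeq's TAIR10.1 table. Of 22810, 64 were controls, 13513 had 1 gene, 503 several and 8730 were unnamed here, and 13436 of the 13513 matched RefSeq. Of 251 listed loci, 61 had a named probe set, and 5 of 24 locus lists had none.

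Signals were transformed as log2(signal + 16), which understates changes of dim genes. limma 3.58.1 (R 4.3.3; lmFit, eBayes with trend, two-sided, Benjamini-Hochberg threshold 0.05) was fitted to all 18 arrays with 9 pairs as a block and an SA term per set, with 6 residual and 6.29 prior degrees of freedom. The pairing rests on replicate numbers in the titles: partner arrays deviated together in each of the 9 pairs, with correlations of 0.129 to 0.770 (0.129 to 0.379 in set 2). Mismatched arrays were not compared in that way. By plain correlation in set 2, SA replicates 2 and 3 were closest to their own silwet partners (0.984 and 0.979). SA replicate 1 was not, at 0.952 with its partner against 0.973 and 0.960 with silwet replicates 2 and 3. The fit was tested on simulated data for SA minus silwet in set 2 over 13647 probe sets. It recovered 95 of 100 changes of 1 on the log2(signal + 16) scale and 100 of 100 changes of 2, with 8 false calls. These rates hold for the simulated noise and are not read as the power of the real arrays. The real pairs of set 2 differed in spread (SD 0.450, 0.262 and 0.297). On them, differences of 1.05 (GI) and 1.21 (psaA) had a limma adjusted p of 0.486. Alternatives were no block, pseudocounts of 1 and 64, quantile normalization, 75th percentile scaling, every Arabidopsis probe set, array weights, set 2 alone, each replicate left out, and, added after seeing the data, no block without silwet replicate 1 of set 2.

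Genes were named by rule: the 12 largest differences in either direction in set 2 with exactly 1 gene, the same sign in each pair and no overlap, the 12 largest called changes in either direction in set 1, and, per list, at most 4 members by smallest p. Genes of the SA, marker and WRKY lists were all named where tested. Members, lists and rules were chosen with earlier results of these data known.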

Additional observations from a re-analysis of the deposited data

Results flagged for a closer look

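The SA effect differed between sets 2 and 1 by the test of the difference itself for 1310 probe sets where it was higher in set 2 and 1031 where it was lower. Of the genes named here, 60 were among them, where 17.2% of all tested probe sets passed. Some named genes, such as F6'H1 and GI, were chosen for large values in set 1 or set 2, which enter this difference. The count of 60 and the sizes for such genes were thus favoured by the choice and are not a separate test. Of the 60, 16 passed under all 11 alternatives run. Without the replicate block 26 of the 60 passed, without replicate 1 43, and the sign turned for 0 of the 60 under any of these.

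All values that follow are the SA effect in set 2 minus that in set 1 on the log2 scale, for list members past the threshold. The effect was lower in set 2 for F6'H1 (-3.96), UGT76B1 (-3.65), GRX480 (-2.82), Hsp70-2 (-2.73), Fes1A (-2.57), AT5G52810 (-2.43), AT3G47480 (-2.10), PUB24 (-1.90), WRKY53 (-1.52) and WRKY6 (-1.21). It was also lower for NDB2 (-1.19), SAG101 (-1.04), IDH-VI (-1.02), BGLU16 (-0.91), CML42 (-0.90), scpl46 (-0.88), CYP84A4 (-0.70) and BZIP60 (-0.66). It was higher in set 2 for GI (1.97), AT2G31790 (1.53), scpl35 (1.16), EXPA9 (1.05), UGT88A1 (0.91), COR47 (0.90), ycf3 (0.89), BCAT4 (0.85), GSTU18 (0.75) and BGLU33 (0.75). Of the genes in this paragraph, the calls of BCAT4 and ycf3 ended under 7 of the 11 alternatives, and those of NDB2, CYP84A4 and GSTU18 under 6.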

How the results depend on the processing

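The count of 0 called probe sets for SA against silwet in set 2 held under all 12 other fits, with unadjusted p under 0.05 for 103 to 1950 probe sets. The 2341 calls of set 2 minus set 1 became 438 (139 higher, 299 lower) with no replicate block, 158 (27 and 131) with no replicate block and without silwet replicate 1 of set 2, and 3957 (2491 and 1466) with array weights, and ranged from 1015 to 2355 with each replicate left out. Set 2 minus set 3 went to 429 calls (299 and 130) with array weights. The median difference in set 2 was -0.030 under 75th percentile scaling. Probe sets without overlap numbered 4404 to 5798 when a replicate was left out, which leaves 2 arrays a group. The cause of these shifts was not tested. The counts of 0 for set 2 and for set 2 minus set 3 were the same with and without the replicate block. Of the 2341 called, 0 changed sign under any of the 11 alternatives run on that contrast. Of 132 named genes, 40 changed sign in set 2 under an alternative, with values up to 0.441 in size (GH3.3), and 0 of the 24 largest differences did. The smallest adjusted p of a named gene in set 2 under any of these was 0.173.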
